A study of Bos taurus with 252 samples.

Results

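The 32 genes described here are known from B cells, the blood lymphocytes that carry antibody as a receptor, and from plasma cells, into which B cells develop to secrete antibody. They were taken from a named list, and all 32 were found by symbol in the count table of 33282 genes. Of these, 15 were listed as used by few blood cells other than B cells (B-restricted members). Another 11 are used by B cells and also by other blood cells (shared members), and 6 belong to the plasma-cell program (plasma-cell members). Among the 15, BLK and FCER2 did not vary with the others from steer to steer (below), so for them the name rests on the list alone. All 32 had more than 0.2 CPM (counts scaled to a library of 1e6) in at least 12 libraries, a condition that 19056 genes met. Levels below are CPM after TMM scaling, which evens out differences in composition between libraries.

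Whole blood was drawn into PAXgene tubes, which lyse all blood cells together, from 42 crossbred steers on day 0 and then after 3, 7, 14, 21 and finally 56 days, giving 6 libraries a steer. The steers formed 7 groups of 6: negative controls without an antimicrobial (NC) and steers given 1 antimicrobial once under the skin. The macrolides were tulathromycin (TULA) and tildipirosin (TILD), and the others were the cephalosporin ceftiofur (CEFT), the fluoroquinolone enrofloxacin (ENRO), the phenicol florfenicol (FLOR) and oxytetracycline (OXYT), a tetracycline. The dose followed the day 0 sample, so day 0 is before treatment in every group. All 42 steers, controls included, had been given tildipirosin, an implant of trenbolone acetate and estradiol, antiparasitic drugs and respiratory and clostridial vaccines weeks before they arrived, and no steer was treated for disease during the trial. Each treatment had its own single pen and its fixed place in the order of sampling after day 0, so treatment, pen and order cannot be told apart. NC and ENRO were sequenced on lane 1, TULA on lane 2 and CEFT and OXYT on lane 3, FLOR and TILD were split over 2 lanes, and the 6 libraries of a steer shared a lane.

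A resting B cell shows the antigen receptor at its surface together with the signalling pair CD79A and CD79B, and kinases and adaptors inside the cell pass the signal on. The factors PAX5 and EBF1 hold the cell in the B-cell state. When a B cell becomes a plasma cell, PRDM1, IRF4 and XBP1 replace that state with a secretory one, JCHAIN joins antibody units and MZB1 helps to fold them, and TNFRSF17 (BCMA) receives survival signals. Newly made plasma cells pass through blood on their way to bone marrow and mucosa, so in blood they are normally few.

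Library totals lay between 26.1 and 74.1 M counts (M, 1e6), with a median of 43.6 M, and hemoglobin genes took between 0.00405 and 25.5% of a library. The defining B-cell markers were measured in every library, MS4A1 (CD20) with 5221 to 50354 counts and CD79A with 12085 to 56853. The thinnest member was TNFRSF17, with 10 to 764 counts and a median of 89.0. Whole blood does not separate cells, so fewer cells of a type and less RNA per cell cannot be told apart in any of these values.

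The first question was how the members moved over the 56 days in the 42 steers together. Each later day was compared with day 0 within steers by edgeR's quasi-likelihood test, and calls were made at a false discovery rate (FDR) of 0.05 over all 19056 genes. In the F test over the 5 later days, 30 of the 32 members passed, beside 81% of all genes (15444 of 19056), so that passing was common. BANK1 (FDR = 0.0609) and BTK (FDR = 0.0902) did not pass. Day, season, age and time in the feedlot moved together in all steers and cannot be told apart. In every group but NC the dose also fell between day 0 and the later days, so the changes over all 42 steers do not separate it from day.

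Most B-restricted members rose, slowly and by small amounts. On day 3, 7 of 15 rose and 2 fell, against 22.1 and 19.2% of all genes. On day 7 the counts were 9 and 1 (25.3 and 20.6% of all genes), on day 14 they were 9 and 3 (34.2 and 30.9%), on day 21 they were 11 and 3 (34.1 and 32.5%), and on day 56 they were 9 and 2 (33.9 and 31.8%). The median log2 change over the 15 genes was 0.12, 0.17, 0.23, 0.36 and 0.28 on these days, while the median over all genes stayed between 0.02 and 0.03. BLK and FCER2, which rose on every day, varied little with the other B-restricted members over steers (median Pearson's r of 0.06 and 0.01). Their rises may therefore not speak for the list.

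**Figure D1:**
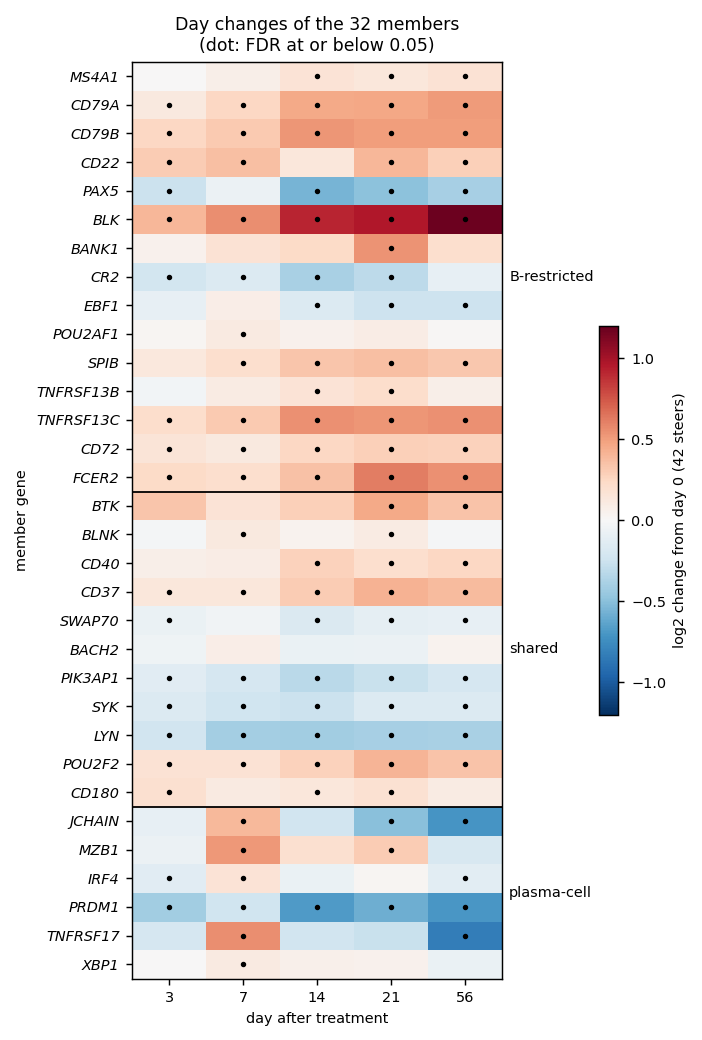
Heat map of the log2 change from day 0 (color, from blue for lower to red for higher) of each of the 32 members (rows, in their 3 lists) on days 3 to 56 (columns), fitted over 42 steers; a dot marks an FDR at or below 0.05. BLK is the darkest red row, PAX5, CR2 and EBF1 are the blue rows among the B-restricted members, and 5 of the 6 plasma-cell rows are red on day 7 only or chiefly then.

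BLK, a kinase of the Src family that acts at the B-cell receptor, had the smallest p of all 19056 genes in the F test. Its median over the 42 steers went from 123 CPM on day 0 (38.3 to 282) to 168, 166, 219.8, 249 and 284 CPM (146 to 497 on day 56). Single steers overlapped between days, yet BLK was higher than on day 0 in 38, 40, 41, 42 and 42 of the 42 steers. The log2 change was 0.40, 0.56, 0.91, 0.96 and 1.18 (SE 0.05 each), and the last is 2.26-fold (FDR = 8.31e-51).

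The receptor pair moved in the same direction. CD79A had a median of 593 CPM on day 0 (395 to 982) and 619, 722, 841, 796 and 823 CPM later (624 to 1269 on day 56). It rose on all 5 days, and on day 56 by 0.51 ± 0.04 (log2, SE) in 42 of 42 steers (FDR = 5.47e-23). CD79B went from 257 CPM (75.9 to 448) to 308, 326, 366, 369 and 351 CPM (146 to 641 on day 56), and its log2 change was between 0.25 and 0.53 with an SE of 0.05.

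MS4A1, the surface protein that anti-CD20 antibodies bind, had smaller changes. Its medians were 427, 424, 443, 482, 453 and 486 CPM, with a range of 137 to 707 on day 0 and of 196 to 739 on day 56. It did not pass on day 3 (-0.00 ± 0.05, FDR = 0.99) or day 7 (0.07 ± 0.05, FDR = 0.218), and rose by 0.16, 0.14 and 0.17 on days 14, 21 and 56. It was higher than on day 0 in 29 of 42 steers on day 56.

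Other surface receptors rose as well. FCER2 (CD23, the low-affinity receptor for IgE) went from a median of 89.4 CPM (39.4 to 211) through 103, 104 and 111 to 127 and 123 CPM (72.9 to 245 on day 56). It rose on each day and by 0.61 ± 0.05 on day 21, in 40 of 42 steers (FDR = 2.48e-23). TNFRSF13C, the receptor for the survival factor BAFF, rose by 0.21, 0.31, 0.55, 0.53 and 0.55, and CD72, an inhibitory coreceptor, by 0.12 to 0.29.

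TNFRSF13B (TACI), which binds BAFF and APRIL, rose on days 14 (0.16 ± 0.05) and 21 (0.21 ± 0.05) only. CD22, an inhibitory lectin of the B-cell surface, rose by 0.30, 0.36, 0.40 and 0.29 on days 3, 7, 21 and 56 with a large SE of 0.13, and missed on day 14 (0.14, FDR = 0.35). BANK1, a scaffold protein of the receptor, passed on day 21 only (0.54 ± 0.18, FDR = 0.00568).

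The transcription factors split. SPIB rose from day 7 on, by 0.20 to 0.36. PAX5 fell by 0.26 on day 3, by 0.56 on day 14, by 0.49 on day 21 and by 0.40 on day 56. Its medians were 80, 68.1, 75.4, 53.3, 55.7 and 58.7 CPM, and 6 of 42 steers were above their own day 0 on day 14 and 5 on day 21. EBF1 fell by 0.16, 0.25 and 0.25 on days 14, 21 and 56. CR2 (CD21), the complement receptor of mature B cells, fell on days 3, 7, 14 and 21, by 0.39 ± 0.06 on day 14 (FDR = 2.32e-09), and missed on day 56. POU2AF1, a coactivator of immunoglobulin genes, passed on day 7 only (0.11 ± 0.04, FDR = 0.0238). The B-restricted members that fell were thus 2 factors that define the cell and a complement receptor, while the receptor pair, BLK and the BAFF receptor rose.

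**Figure D2:**
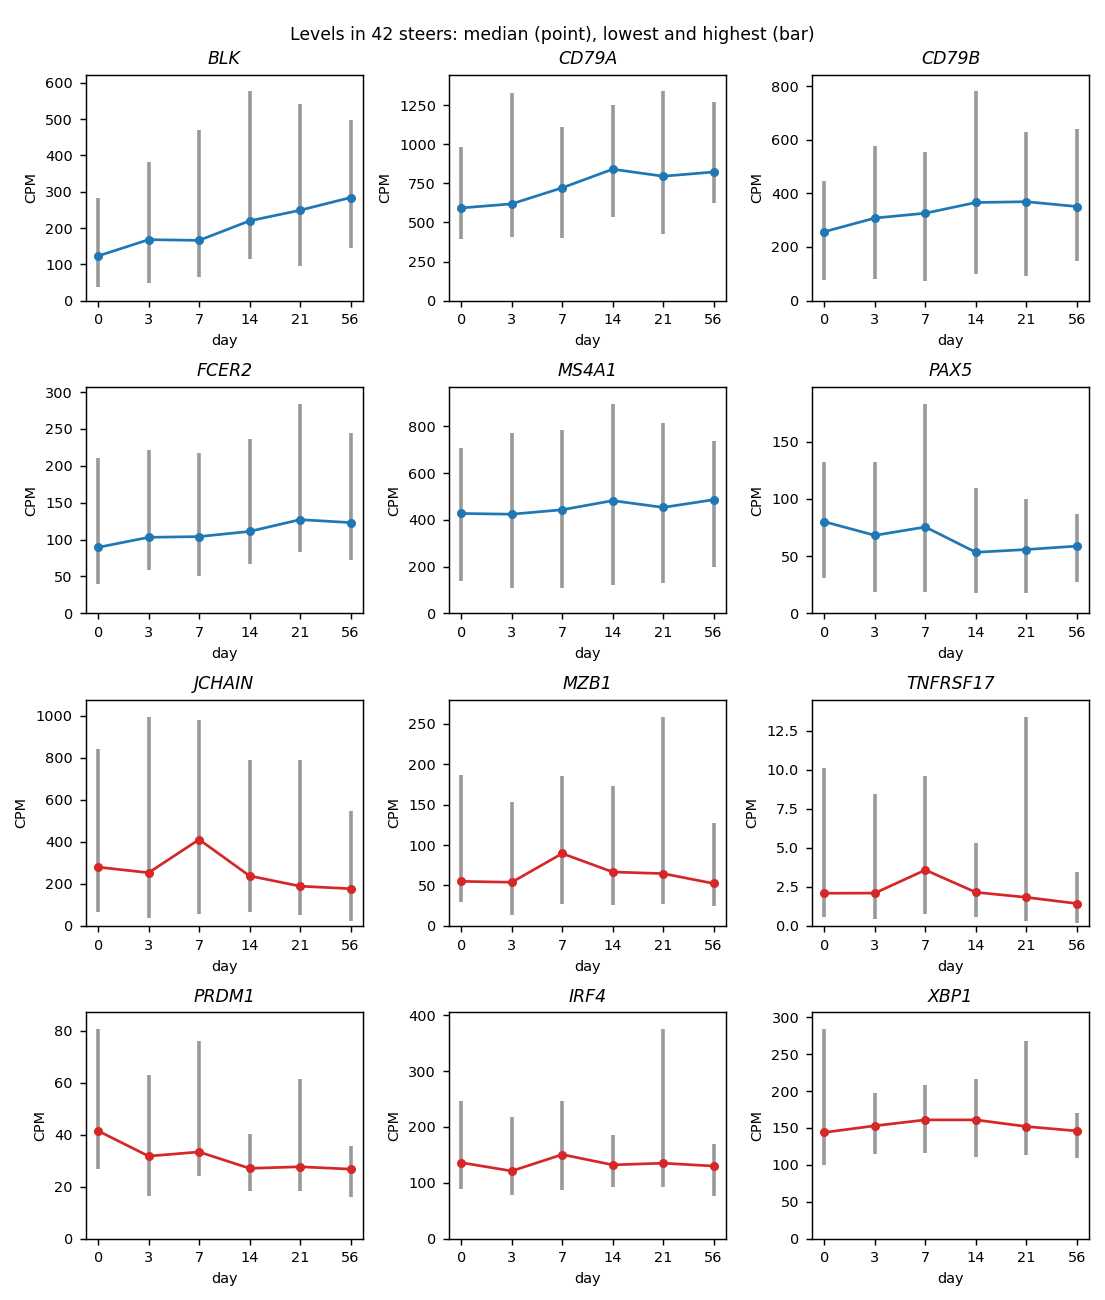
Level in CPM (vertical axis, from 0) of 12 members on the 6 days (horizontal axis, evenly spaced), with the median of 42 steers as a point and the lowest to highest steer as a bar; B-restricted members in blue and plasma-cell members in red. The BLK median climbs from 123 to 284 CPM, whereas JCHAIN, MZB1 and TNFRSF17 peak on day 7 and end near or below day 0.

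The 11 shared members had no common direction. Of these, 3 rose and 4 fell on day 3 (22.1 and 19.2% of all genes), 3 and 3 on day 7 (25.3 and 20.6%), 4 and 4 on day 14 (34.2 and 30.9%), 6 and 4 on day 21 (34.1 and 32.5%), and 4 and 4 on day 56 (33.9 and 31.8%). These shares are near those of all genes on days 14 and 56, and the median log2 change stayed between -0.02 and 0.10. POU2F2, a partner of POU2AF1, went from a median of 164 CPM (77.3 to 249) to 199.9 CPM (138 to 298) on day 56, and rose on every day, by 0.41 ± 0.04 on day 21 (FDR = 1.16e-20). CD37, a tetraspanin of lymphocytes, went from 279.8 CPM (200.1 to 412) to 374 CPM (224 to 594) on day 21 and also rose on every day, by 0.42 ± 0.04 on day 21 in 41 of 42 steers.

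CD40, which receives help from T cells, rose on days 14, 21 and 56 by 0.28, 0.20 and 0.25. CD180, a Toll-like receptor relative on B cells and myeloid cells, rose on days 3, 14 and 21 by 0.14 to 0.19. BLNK, the adaptor below SYK, rose on days 7 (0.12) and 21 (0.10). BTK passed on days 21 (0.45 ± 0.16) and 56 (0.34 ± 0.16). BACH2, a repressor that holds back plasma-cell development, passed the F test (FDR = 0.00504) but no single day against day 0.

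Among the shared members 4 fell. LYN, a Src kinase of B and myeloid cells, fell on every day, by 0.42 ± 0.05 on day 14, and was above its own day 0 in 5 of 42 steers. SYK fell by 0.16 to 0.26, PIK3AP1 (BCAP), an adaptor to PI3 kinase, by 0.14 to 0.32, and SWAP70 on days 3, 14, 21 and 56 by 0.08 to 0.17. Markers of neutrophils and monocytes fell over the same days (below), and their part in these falls was not tested.

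The plasma-cell members followed another course than the B-restricted ones: they were high on day 7 and low on day 56. On day 7, 5 of 6 rose and 1 fell, against 25.3 and 20.6% of all genes. On day 56 none of the 6 rose and 4 fell, against 33.9 and 31.8%. On days 3, 14 and 56 edgeR also gave 0 rises at an unadjusted p under 0.05, and limma voom called 0. On days 3, 14 and 21, 0, 0 and 1 rose and 2, 1 and 2 fell. Of all genes, 22.1, 34.2 and 34.1% rose and 19.2, 30.9 and 32.5% fell on those days. The median log2 change over the 6 plasma-cell members was -0.12, 0.28, -0.15, -0.12 and -0.44.

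JCHAIN, the joining chain of secreted IgM and IgA, had a median of 279.6 CPM on day 0 (66.6 to 844), 253 on day 3, 411 on day 7 (56.7 to 978), 238 on day 14, 189 on day 21 and 177 on day 56 (22.8 to 548). The range was wide on each day and the days overlapped. It rose on day 7 (0.39 ± 0.16, 27 of 42 steers, FDR = 0.0396) and was below day 0 on day 21 (-0.50 ± 0.16) and day 56 (-0.71 ± 0.17, FDR = 6.40e-05), when 9 of 42 steers were above their own day 0.

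MZB1, a chaperone for antibody chains, went from 55.1 CPM (30.1 to 187) to 89.6 CPM on day 7 (27.6 to 186) and to 52.5 CPM on day 56 (24.2 to 127). Its day 7 rise of 0.52 ± 0.11 was seen in 36 of 42 steers (FDR = 1.76e-05), and a rise of 0.30 ± 0.11 was still called on day 21. TNFRSF17 had medians of 2.09, 2.1, 3.58, 2.15, 1.83 and 1.43 CPM. It rose on day 7 (0.56 ± 0.15, 31 of 42 steers, FDR = 0.00115) and fell by 0.83 ± 0.16 on day 56 (FDR = 2.11e-06). In the annotation of another assembly TNFRSF17 overlaps GSPT1, and reads of overlapping genes could be shared, since the use of strand in the counting is not stated.

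IRF4, which acts in activated B cells and in plasma cells, fell by 0.14 on day 3, rose by 0.16 on day 7 and fell by 0.13 on day 56, all with an SE of 0.05. XBP1, the factor of the secretory program, passed on day 7 only (0.11 ± 0.04, FDR = 0.03). PRDM1 (Blimp-1), which T and NK cells use too, did not follow the others: it fell on all 5 days. Its median went from 41.4 CPM (26.9 to 80.5) to 31.7, 33.3, 27, 27.6 and 26.7 CPM (15.9 to 35.6 on day 56), and the log2 change was -0.42, -0.24, -0.68, -0.59 and -0.70 (SE 0.07 each). On day 56, 0 of 42 steers were above their own day 0.

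The decline after day 7 was then tested in the same fit, a comparison added after the data were seen. Day 7 was the day on which 5 of the 6 had risen in these same data, so a fall from it was in part built in. The shares of all genes do not allow for that. PRDM1 was already below day 0 on day 7 (-0.24 ± 0.07). From day 7 to day 56 all 6 plasma-cell members fell, where 25.8% of all genes fell: JCHAIN by 1.1 ± 0.17, TNFRSF17 by 1.40 ± 0.16, MZB1 by 0.71 ± 0.11, PRDM1 by 0.45 ± 0.07, IRF4 by 0.30 ± 0.05 and XBP1 by 0.19 ± 0.04. On day 14, 5 of the 6 were already below day 7 (all but XBP1), where 23.1% of all genes were, and on day 21 it was 4 of 6 (all but MZB1 and XBP1), where 26.2% were. For TNFRSF17, 37 of 42 steers were lower on day 56 than on day 7. Over the same interval 6 of the 15 B-restricted members rose (28.9% of all genes did) and 3 fell. BLK rose by a further 0.61 ± 0.05, FCER2 by 0.35 ± 0.05 and CD79A by 0.25 ± 0.04, and CD79B, TNFRSF13C and CD72 rose too, while EBF1 fell by 0.33 ± 0.06, PAX5 by 0.32 ± 0.07 and POU2AF1 by 0.10 ± 0.04.

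Genes that work beside the members were read from lists of neighbouring function. Of 25 other genes of B-cell receptor signalling, many of which all leukocytes use, 7 rose and 15 fell on day 14 (34.2 and 30.9% of all genes). VAV3, a signalling protein of lymphocytes, fell by 0.65 ± 0.05 on day 14, and PIK3R1, a regulatory subunit of PI3 kinase, by 0.35 ± 0.04. Of 9 other B-cell transcription factors, 1 rose and 4 fell on day 14. BCL6, which germinal centre B cells and also myeloid cells use, fell by 1.15 on day 14 and SPI1 by 0.23.

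Of 15 genes of the secretory pathway of plasma cells, which other secreting cells also use, 5 rose and 7 fell on day 7 (25.3 and 20.6% of all genes). On day 56, 2 rose and 9 fell (33.9 and 31.8% of all genes). ELL2, EDEM1 and SEL1L, the 3 with the smallest p over days, fell by 0.47, 0.21 and 0.15 on day 7. These 3 did not share the day 7 rise of JCHAIN and MZB1, but the list was split, and its highest change that day was 0.38. Among the ligands, CD40LG, the T-cell partner of CD40, rose by 0.39 ± 0.04 on day 7. TNFSF13B (BAFF), the ligand of TNFRSF13C, fell by 0.49 on day 7 and by 0.82 on day 21, while its receptor rose.

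The immunoglobulin genes gave little. Of 12 listed, 4 had rows in the table used here. IGHM was listed at 0 in 13 to 18 of the 42 libraries of a day and had medians of 2.84 to 4.86 CPM, and its change did not pass on any day. IGHG1 was listed at 0 in 39 to 42 of 42 libraries, so no change is given for it. IGHE and IGLL1 passed on no single day. Antibody output was therefore not measured by these rows.

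Markers of the other blood cells moved over the same days. The sum over 11 T-cell markers had a median of 2153 CPM on day 0 (1656 to 3149.7) and of 3139 CPM on day 56 (2204 to 4421), and 10 of the 11 rose on day 14 and 0 fell. The sum over 8 neutrophil markers went from 2940.4 CPM (1612 to 5685) to 2304 CPM (1222 to 4868), with 5 of 8 lower on day 14, and that over 7 monocyte markers from 2863 CPM (1938 to 6611) to 2224 CPM (1344 to 3808), with 6 of 7 lower. Of 7 NK markers 1 rose and 4 fell on day 14, and of 9 erythroid markers 8 rose and 0 fell. Of all genes, 34.2% rose and 30.9% fell on that day. No marker of these lists was at 0 in all libraries. The rise of B-restricted members thus went with a rise of T-cell markers and a fall of myeloid markers, and CPM are shares of a total, so the part of one in the other was not tested.

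**Figure D3:**
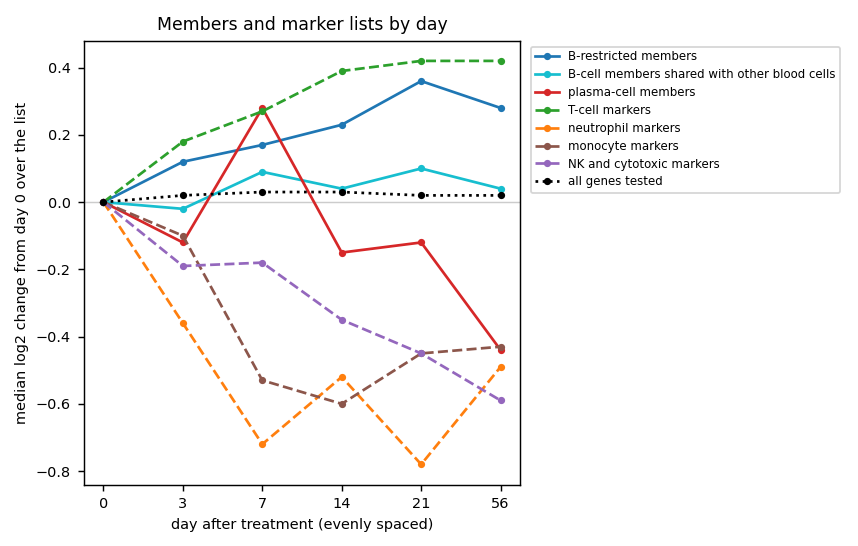
Median log2 change from day 0 (vertical axis) over the genes of each list by day (horizontal axis, evenly spaced), for the 3 lists of members (solid), 4 lists of markers of other cells (dashed) and all 19056 genes (dotted). The B-restricted and T-cell lines climb to 0.36 and 0.42 on day 21, the plasma-cell line peaks at 0.28 on day 7 and ends at -0.44, and the neutrophil and monocyte lines lie below 0.

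The same course was looked for in each group and lane, with the smaller power of 6 or 14 steers. BLK, CD79B, FCER2 and POU2F2 were above day 0 in all 7 groups, NC included, on all 5 days, and LYN and SYK below it. In the NC steers alone, BLK rose by 0.78 on day 14 (FDR = 3.18e-04) and 1.09 on day 56, and CD79A by 0.49 and 0.51. PAX5 and PRDM1 were below day 0 in 7 of 7 groups and 3 of 3 lanes on days 14, 21 and 56.

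For the day 7 rise of the plasma-cell members, MZB1 had a positive estimate in 7 of 7 groups, JCHAIN in all but TILD, where it was 0.00, and TNFRSF17 in all but NC. In the NC steers the median over the 6 plasma-cell members on day 7 was -0.03 and none passed, with TNFRSF17 at -0.20, IRF4 at -0.08 and XBP1 at 0.02, and 2.8% of all genes passed. The JCHAIN estimate was 0.94 in CEFT (FDR = 0.0917), 0.78 in ENRO and 0.44 in NC, and none of these passed within its group. MZB1 passed on day 7 in CEFT (0.93, FDR = 0.0154). By lane, MZB1 rose on day 7 on lane 3 (0.78, FDR = 4.86e-04), with 0.33 on lane 1 (FDR = 0.159) and 0.41 on lane 2 (FDR = 0.121). The JCHAIN estimate was 0.60 on lane 1 (FDR = 0.159), -0.01 on lane 2 (FDR = 0.975) and 0.59 on lane 3 (FDR = 0.0705). In TILD alone JCHAIN fell by 1.89 on day 21 (FDR = 3.50e-06). The other groups had estimates from -0.96 (CEFT) to 0.13 (ENRO) on that day, with -0.12 in NC. On day 56 the JCHAIN estimate was below 0 in 7 of 7 groups and 3 of 3 lanes.

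The share of the variance between steers was larger than that between days in every member but PRDM1. Such a share grows with the number of groups even by chance, and there were more steers than days. Over all genes tested, the lowest share was 9.93% between steers and 0.0122% between days. The steer and day shares therefore cannot be compared directly, and only the comparison with all genes is like for like. The steer share also contains differences between treatments, pens and lanes. The share of the variance of log2 CPM between steers had a median of 72.1% over the 15 B-restricted members, 67.3% over the shared and 35.6% over the plasma-cell members, beside 38.6% over all genes tested. For MS4A1 it was 82.6%, with 1.84% between days, and for POU2AF1 81.8%. The plasma-cell members lay lower, from 25.4% for PRDM1 to 57.1% for IRF4, and PRDM1 had 33.7% between days. BTK, BANK1 and CD22 had 22.8, 31.2 and 36.6% between steers.

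Pairs of members were compared over the 42 steers by their mean log2 CPM over 6 days, with 100000 permutations (two-sided) and Benjamini-Hochberg adjustment over 4 pairs. CD79A and CD79B had r = 0.75 (rho = 0.83), MS4A1 and CD79A r = 0.65 (rho = 0.77) and JCHAIN and MZB1 r = 0.81 (rho = 0.72). Each of these had a permutation p of 1e-05, the smallest that could be given, and an adjusted p of 1.30e-05. MS4A1 and JCHAIN had r = 0.17 (permutation p = 0.284) and rho = 0.21 (permutation p = 0.19). Without the 2 steers farthest from the median of the first gene, r was 0.73, 0.75, 0.73 and 0.18.

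Within the lanes of 14 steers, r was 0.76, 0.73 and 0.83 for CD79A and CD79B and 0.69, 0.63 and 0.79 for MS4A1 and CD79A. JCHAIN and MZB1 had 0.41, 0.91 and 0.86, so the relation was weakest on lane 1. For MS4A1 and JCHAIN it was -0.04, 0.22 and 0.37. A steer with much B-cell RNA was thus not shown to have much plasma-cell RNA.

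As a description without a test, all other pairs were read in the same way, over 42 steers that share lanes and depth. The 105 pairs of B-restricted members had a median r of 0.52, the 15 pairs of plasma-cell members 0.57 and the 90 pairs across the lists 0.07. MS4A1 with SPIB (0.97), PAX5 with EBF1 (0.96) and CD79B with TNFRSF13C (0.95) were the most alike. BLK and FCER2 stood outside: their median r with the other B-restricted members was 0.06 and 0.01. BLK had r = 0.12 with CD79B and r = 0.36 with the T-cell marker CD3E, and its median r with the 11 T-cell markers was -0.05. PIK3AP1 (0.07) and BACH2 (0.00) did not follow the B-restricted members either, whereas BLNK (0.78), CD40 (0.77), CD180 (0.75) and SYK (0.69) did. Among the plasma-cell members IRF4 (0.53) went with both lists.

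**Figure D4:**
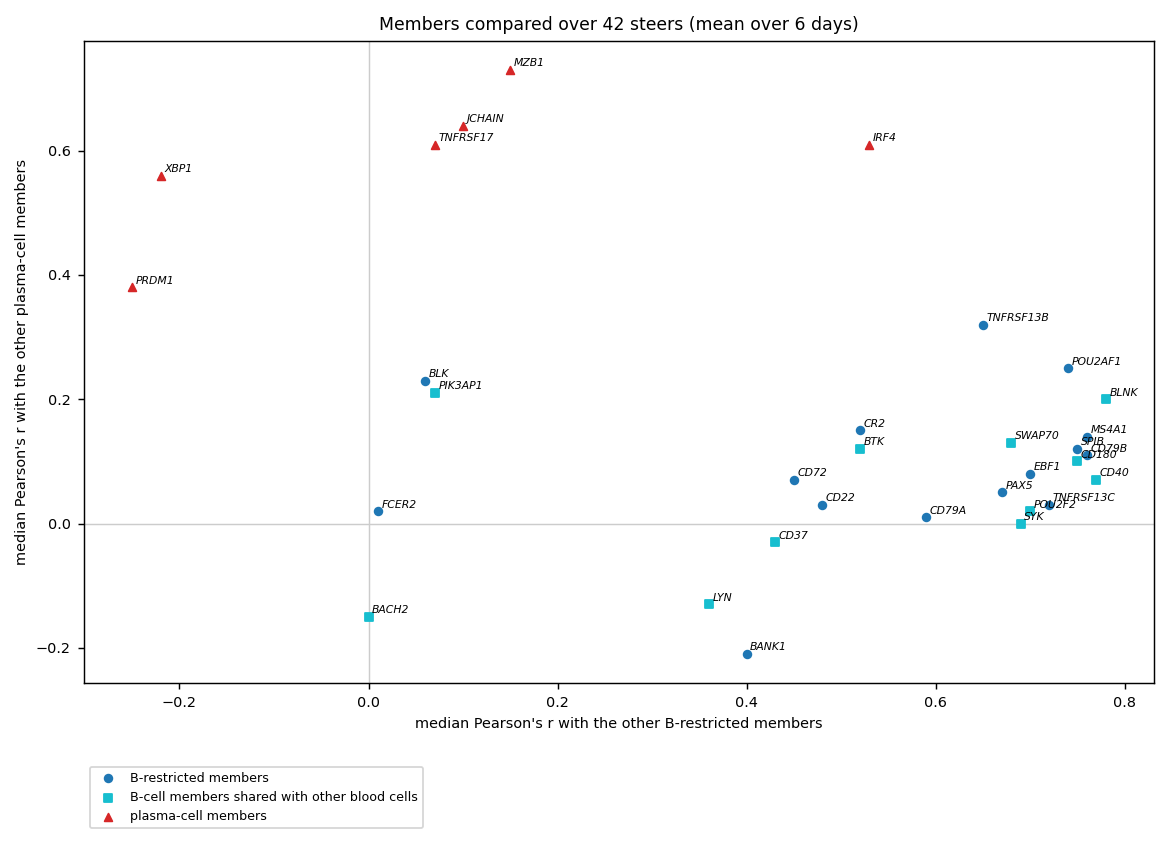
Each point is a member, placed by its median Pearson's r with the other B-restricted members (horizontal axis) and with the other plasma-cell members (vertical axis), over 42 steers. Most B-restricted and shared members lie at the right, the 6 plasma-cell members at the top, IRF4 at the top with 0.53 on the horizontal axis, and BLK, FCER2, PIK3AP1 and BACH2 near 0 on the horizontal axis.

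Single steers, named after their values were seen, lay at the ends of both lists. Steer ENRO 6 had the lowest level of the 42 for 9 of 15 B-restricted and 7 of 11 shared members, on average over the days, with 130.1 CPM of MS4A1 against a median of 443. Its MS4A1 and CD79B were the lowest of 42 on each of the 6 days, day 0 included, so this preceded treatment. The same steer had the highest BLK (426 CPM, median 189) and PIK3AP1 of the 42, its CD79A ranked 8 from below, its plasma-cell members were at neither end, and its summed T-cell markers were the highest and its monocyte markers the lowest of the 42. Without steer ENRO 6, 30 members still passed the F test over days.

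Steer TILD 7 had the highest level of 5 of the 6 plasma-cell members, with 682 CPM of JCHAIN against a median of 241, and 0 of the 15 B-restricted ones. Steer TULA 4 had the lowest level of 5 of the 6, while its MS4A1 was the second highest.

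The next question was whether a treatment differed from NC on a day, tested for 6 treatments and 6 days with 6 steers a group by edgeR at an FDR of 0.1. Of 1152 tests of members, 2 passed (0.174%), beside 0.694% of the tests of all genes. DESeq2 made more calls, 17 of the 1150 member tests to which it gave an adjusted p (1.48%), beside 3.37% of those of all genes, and 8 of its 17 were FLOR on day 3, where 10.8% of all genes passed with DESeq2. All comparisons share the 6 NC steers. On day 0, before treatment, 0 of the 32 members passed in any of the 6 treatments with edgeR. Of these 192 tests 10 had an unadjusted p under 0.05, beside 4.98 to 7.24% of all genes over the 6 comparisons. Neither DESeq2 nor the likelihood ratio test after ComBat_seq by lane passed any member on that day. Both calls, CD79A and PRDM1, were FLOR against NC on day 3, where 2.67% of all genes passed, 0.750% higher and 1.92% lower. Groups of 6 did not overlap for 1 member in 1 of the 36 comparisons, CD79A in FLOR on day 7, beside 0.315% of all genes there.

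CD79A on day 3 was 605 to 868 CPM in FLOR (median 764) and 463 to 621 CPM in NC (median 513). All 6 FLOR steers were above the NC median and the lowest FLOR steer, FLOR 8, lay among the NC steers. The log2 difference was 0.47 ± 0.11 (FDR = 0.0655), and on day 0 it had been 0.31 ± 0.15 (FDR = 0.993), so an estimate of the same sign was there before treatment. The 2 FLOR steers sequenced on lane 1 like NC had 800.1 and 789.9 CPM.

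PRDM1 on day 3 was 16.3 to 31.4 CPM in FLOR (median 22.8) and 27.1 to 62.8 CPM in NC (median 39.6). No FLOR steer was above the NC median, and the groups overlapped by the highest FLOR steer, FLOR 3. The log2 difference was -0.88 ± 0.21 (FDR = 0.0792), against -0.08 ± 0.24 on day 0. On lane 1 the 2 FLOR steers had 31.4 and 21.0 CPM. Both calls were fragile: with each of the 12 steers left out in turn, CD79A kept its call in 6 fits (FDR = 0.0608 to 0.15 over the 12) and lost it without FLOR 3, 6 or 10 or NC 1, 7 or 12, PRDM1 kept its call only without FLOR 3, NC 13 or NC 15 (FDR = 0.0737 to 0.161), and neither passed when all 42 libraries of the day were fitted with a lane term.

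**Figure D5:**
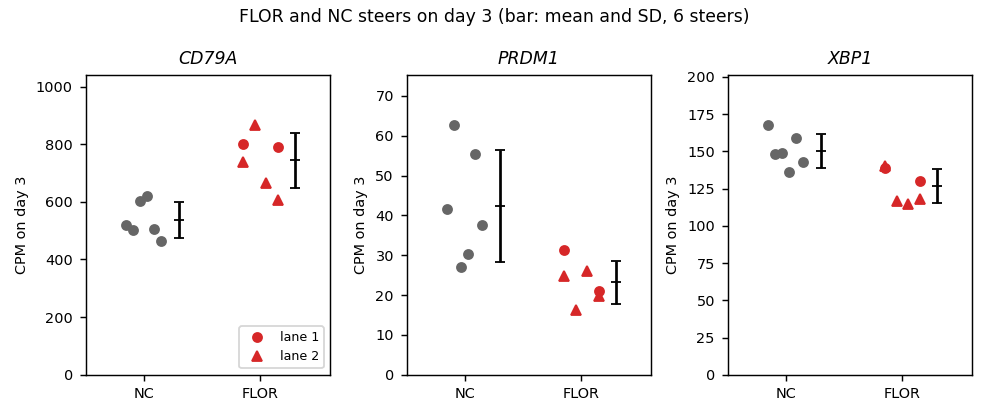
Level in CPM (vertical axis, from 0) of CD79A, PRDM1 and XBP1 on day 3 in the 6 NC and the 6 FLOR steers (points, circles for lane 1 and triangles for lane 2), with the mean and SD beside them. CD79A is higher in FLOR (mean 744 against 535 CPM) and PRDM1 lower (23.2 against 42.4 CPM), with overlap of the groups in each panel.

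The 4 next pairs missed the threshold with edgeR, and 3 of them passed with DESeq2 (XBP1 in FLOR, FDR = 0.0301, PRDM1 in OXYT, FDR = 0.0466, and CD37 in CEFT, FDR = 0.0604). XBP1 was 115 to 140.2 CPM in FLOR and 136 to 168 CPM in NC on day 3 (-0.26 ± 0.07, FDR = 0.117), with all 6 FLOR steers under the NC median. CD37 was 257 to 559 CPM in CEFT and 241 to 308 in NC on day 3 (0.46 ± 0.17, FDR = 0.123). PRDM1 on day 3 was 24.5 to 31.4 CPM in OXYT (-0.61 ± 0.19, FDR = 0.133) and 20.7 to 39.7 CPM in CEFT (-0.55 ± 0.22, FDR = 0.152). These 3 PRDM1 comparisons rest on the same 6 NC values, of which NC 12 (62.8 CPM) and NC 5 (55.3 CPM) were the highest.

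The other plasma-cell members on FLOR day 3 had estimates of the same sign, and with edgeR none passed: MZB1 was 14.0 to 46.2 CPM in FLOR and 32.6 to 67.6 in NC (-0.88 ± 0.29, FDR = 0.158), TNFRSF17 had -0.95 ± 0.31 (FDR = 0.161), JCHAIN -0.83 ± 0.44 (FDR = 0.357) and IRF4 -0.32 ± 0.17 (FDR = 0.362). With DESeq2, MZB1 (FDR = 0.0529) and TNFRSF17 (FDR = 0.068) passed. Within FLOR alone, JCHAIN fell from day 0 to day 3 by 1.41 (FDR = 0.0394), MZB1 by 1.31 (FDR = 0.0149) and PRDM1 by 0.99 (FDR = 0.0118), while 2.41% of all genes passed. No T-cell, neutrophil, monocyte, NK, platelet or erythroid marker passed between FLOR and NC on day 3 with edgeR, but the median log2 difference was -1.68 over the erythroid markers, 0.45 over the platelet, 0.21 over the monocyte and -0.23 over the NK markers. The summed erythroid markers were 1496 to 11261 CPM in FLOR and 2853 to 61309 in NC, and their part in the differences of the members was not tested. In that comparison 3 of the 15 secretory genes were lower in FLOR and 0 higher, where 1.92% of all genes were lower and 0.750% higher.

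Averaged over the 6 days, with steer as a random block (limma voom, FDR of 0.05), 4 members passed between FLOR and NC, where 1.57% of all genes passed. On simulated data this test made more false calls than its threshold allows. None passed in the other 5 treatments, with 5 members under an unadjusted p of 0.05 in CEFT, 4 each in ENRO, OXYT and TILD and 11 in TULA. Of all genes, 3.40, 0.441, 0.703, 5.04 and 0.677% passed in CEFT, ENRO, OXYT, TILD and TULA. The shares of all genes under an unadjusted p of 0.05 were 19.5, 8.57, 10.1, 20.5 and 11.4% in the same order. All 4 members that passed were higher in FLOR, on each of the 6 days. CD79A had a mean over days of 675 to 934 CPM in the 6 FLOR steers (median 846) and 552 to 778 in NC (median 622), a log2 difference of 0.37 ± 0.11 (FDR = 0.043). TNFRSF13C was 54.9 to 107 CPM in FLOR and 30.2 to 89.6 in NC (0.61 ± 0.17, FDR = 0.043).

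POU2AF1 was 117 to 201 CPM in FLOR and 92.7 to 171 in NC (0.42 ± 0.12, FDR = 0.0494), and SWAP70 69.7 to 91.9 and 52 to 81.7 CPM (0.28 ± 0.08, FDR = 0.0345). In each gene all 6 FLOR steers were above the NC median, and the groups overlapped. The day 0 differences, before any drug, were 0.31, 0.62, 0.28 and 0.30 for CD79A, TNFRSF13C, POU2AF1 and SWAP70. When the counts of a steer were summed over days, so that each steer counted once, none of the 4 passed (FDR = 0.509 to 0.615, edgeR), and 8 members in FLOR had an unadjusted p under 0.05. In that test 0.00525% of all genes passed in FLOR and 8.03% had an unadjusted p under 0.05. After ComBat_seq by lane none passed either.

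Whether the course over days differed from that of NC was tested as a difference of changes from day 0, which takes out what a steer had before treatment. Over the 5 days together, BACH2 (FDR = 0.00552) and PAX5 (FDR = 0.0268) passed in ENRO, where 8.67% of all genes passed. In a fit of NC and ENRO alone BACH2 kept its call (FDR = 0.0208) and PAX5 lost it (FDR = 0.0736). Over the same days IRF4 (FDR = 0.0238), PRDM1 (FDR = 0.0353) and MZB1 (FDR = 0.0423) passed in FLOR, where 0.861% did. In CEFT, OXYT, TILD and TULA no member passed, where 4.65, 3.25, 0.420 and 0.0420% of all genes did. Of the 32 members, 9, 10, 2 and 3 had an unadjusted p under 0.05 there. The shares of all genes under an unadjusted p of 0.05 were 26%, 20.1%, 14.9% and 11.2% in the same order. On single days, members passed only in ENRO on day 7, where 5 of 32 did, beside 6.24% of all genes (2.82% higher and 3.43% lower). On day 7, 13 members in CEFT, 10 in ENRO and 7 in OXYT had an unadjusted p under 0.05. FLOR, TILD and TULA had 1, 2 and 0. The shares of all genes were 10.9, 22.1, 8.77, 6.45, 8.39 and 5.62% in the same order. The median differences over the B-restricted members were -0.30, -0.13, -0.37, -0.15, -0.14 and -0.09. All share the 6 NC steers, whose own B-restricted median change on day 7 was 0.34.

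BACH2 and IRF4 were the 2 of them with a higher change in ENRO. The change of BACH2 from day 0 to day 7 was 0.04 to 1.25 in the 6 ENRO steers (log2, median 0.45) and -0.57 to 0.59 in NC (median -0.12). All 6 ENRO steers went up and 2 of 6 NC steers did, and the difference of changes was 0.60 ± 0.16 (FDR = 0.0172). IRF4 changed by 0.02 to 1.24 in ENRO (median 0.46) and by -0.63 to 0.26 in NC (median 0.01), a difference of 0.60 ± 0.16 (FDR = 0.0192). PAX5 had the same sign on day 7 (0.61 ± 0.25) without passing (FDR = 0.118).

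TNFRSF13C, CD72 and CD37 had a lower change in ENRO on day 7. TNFRSF13C changed by -0.98 to 0.20 in ENRO and by 0.21 to 0.79 in NC, a difference of -0.72 ± 0.21 (FDR = 0.0249). CD72 changed by -0.65 to 0.11 in ENRO and by 0.07 to 0.41 in NC (-0.50 ± 0.14, FDR = 0.0258), and CD37 by -0.42 to 0.29 and 0.04 to 0.59 (-0.44 ± 0.15, FDR = 0.0497, and 0.056 with NC and ENRO alone). All 6 NC steers went up in each of the 3 genes, whereas 3, 3 and 2 of the ENRO steers did. On days 3, 14, 21 and 56 none of these 5 members passed. Like TNFRSF17, CD72 and CD37 overlap another gene in the annotation of another assembly (TESK1 and TEAD2), so reads could be shared. NC and ENRO shared lane 1. In the same comparison 2 of 8 neutrophil markers, 1 of 7 monocyte markers and 1 of 9 erythroid markers were lower in ENRO and no T-cell, NK or platelet marker passed, and their part in these differences was not tested.

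In FLOR the 3 genes that passed over the days together belong to the plasma-cell program, and no single day passed. MZB1 and PRDM1 had their largest difference on day 3. The change of MZB1 to day 3 was -2.05 to -0.45 in FLOR (median -1.32) and -1.61 to 0.68 in NC (median 0.19), a difference of -1.08 ± 0.37 (FDR = 0.475). It went down in all 6 FLOR steers and up in 4 of 6 NC steers. For PRDM1 it was -1.47 to -0.51 in FLOR and -1.36 to 0.41 in NC (-0.77 ± 0.23, FDR = 0.383). IRF4 had its largest difference on day 21 (0.42 ± 0.16, FDR = 0.481) and -0.40 ± 0.16 on day 3. None of the 3 passed in a fit of NC and FLOR alone (FDR = 0.18 to 0.34).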

How the data were processed

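Whole blood RNA of 42 steers on 6 days (252 libraries) was read from the table of counts per gene that the authors deposited. Per the methods and processing notes, reads were trimmed with Trimmomatic 0.39, aligned with HISAT2 to ARS-UCD1.3 and assembled with StringTie 2.2.0, and prepDE.py3 turned transcript coverage into whole counts for a read length of 150. These counts are estimates, are not normalized and are not adjusted for lane, and the release of the annotation and the use of strand in counting are not given in the sources used here. Gene names were checked against the RefSeq table of assembly ARS-UCD2.0, which held all 32 members. In it 11 of them overlap another gene, and no coordinates or sequences were used.

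The filter kept 19056 of 33282 genes, those exceeding 0.2 CPM in 12 or more libraries. Library sizes came from the full table and TMM factors were computed over the libraries of each fit (0.703 to 1.17 over all 252). CPM printed here are TMM-scaled, and log2 CPM used a prior count of 2. Day changes and differences of changes came from edgeR's quasi-likelihood test with steer as a fixed block, over all 252 libraries (FDR of 0.05). A treatment was compared with NC on a day by the same test on 12 libraries (FDR of 0.1), and over all days by limma voom, in which steer was the random block (FDR of 0.05). Tests were adjusted by Benjamini-Hochberg over all genes. The scripts were tested on simulated data. Alternatives were RLE size factors, no filter, no hemoglobin genes, no replicate block, limma voom, DESeq2, ComBat_seq by lane, lane as a term, sums per steer and steers left out. R 4.3.3, edgeR 4.0.16, limma 3.58.1, DESeq2 1.42.0, sva 3.50.0, Python 3.11.15, numpy 2.4.6, scipy 1.17.1 and pandas 2.3.3 were used.

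The label pairs the libraries of 1 steer over days. Their deviations from the mean of their group on a day had a median correlation of 0.34, against -0.08 between steers of a group, and the mean was above 0.1 for 42 of 42 steers. Numbers do not pair steers across groups. No 2 libraries held identical counts. Steers of a group shared 1 pen, so p-values measure the spread between steers of that pen.

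The members and gene lists were chosen with earlier results of these data known. All 32 members were reported by role. Ranges over the 42 steers were printed for the 4 B-restricted, 2 shared and 3 plasma-cell members with the smallest p in the test over days and for MS4A1, CD79A, CD79B and JCHAIN, values per group for the 6 pairs of member and comparison with the smallest FDR in the test on a day, and up to 3 genes of each other list by the smallest p over days. A gene that this rule names is not reported here.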

Additional observations from a re-analysis of the deposited data

Results flagged for a closer look

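Of the groups of 6 steers whose values are printed for treatment comparisons, 30 were examined for a single steer far from the rest, a test that marks about 1 group in 20 by chance, and 2 had one. Steer ENRO 10 changed by -0.98 (log2) in TNFRSF13C from day 0 to day 7, where the other 5 ENRO steers changed by -0.23 to 0.20. Steer NC 1 changed by 0.07 in CD72 over the same days, and the other 5 NC steers by 0.31 to 0.41. Both values enter the ENRO comparisons of day 7 given above.

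Differences between a treatment and NC in the change from day 0 were those already given. In ENRO on day 7 the difference of log2 changes was 0.60 for BACH2, 0.60 for IRF4, -0.72 for TNFRSF13C, -0.50 for CD72 and -0.44 for CD37. Over the 5 days together the FDR was 0.00552 for BACH2 and 0.0268 for PAX5 in ENRO, and 0.0238 for IRF4, 0.0353 for PRDM1 and 0.0423 for MZB1 in FLOR (edgeR).

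With NC and the treatment fitted alone and each of the 12 steers left out in turn, BACH2 in ENRO passed in 8 fits (FDR = 0.0135 to 0.161) and PAX5 in 2 (0.0372 to 0.195), and both passed without steer ENRO 6. The fits in which BACH2 did not pass were those without ENRO 2, ENRO 9, NC 5 or NC 7. In FLOR, IRF4 passed in 1 fit (0.0388 to 0.514) and MZB1 in 1 (0.0293 to 0.478), both without steer FLOR 3, and PRDM1 in 0 (0.14 to 0.542).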

How the results depend on the processing

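Of the 160 day changes of members, 0 lost a call with the hemoglobin genes removed, 2 with RLE size factors, 5 with no filter, 10 with limma voom and 38 with no replicate block. With no replicate block, 2 members rose and 2 fell on day 3 (10 and 8 with it) and 9 rose on day 7 (17 with it), and the counts for the later days stayed within 1.5 times. With RLE size factors the share of rises among the calls of all genes on day 3 was 51.4% (53.5% with TMM).

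Of the 1152 tests of members against NC on a day, the 2 calls became 1 with no filter, 17 with DESeq2, 1 with ComBat_seq by lane and the likelihood ratio test, and 0 with lane as a term. With 1 steer left out in turn (12 fits), FLOR on day 3 had 0 to 2. The 4 calls over all days became 9 with no filter, 0 on days 3 to 56 only, 0 with ComBat_seq by lane and 0 on counts summed per steer. For the change from day 0, the 5 calls over days together became 0 with no replicate block, 3 with limma voom and 1 with NC and the treatment alone, and the 5 calls on single days became 0 with no replicate block and 2 with limma voom. No direction of a called value was reversed in any of these. The cause of these differences was not tested. With RLE size factors r over steers was 0.75, 0.65, 0.81 and 0.17 for the 4 pairs, with no p computed.

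FLOR lay mostly on another lane than NC, and each treatment in 1 pen. The counts of TNFRSF17 were the smallest of the members. The other members had at least 154 counts in each library.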
